A study of Mus musculus with 6 samples.

Results

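The keratin and epidermal differentiation gene clusters were followed in chromatin of primary mouse embryonic fibroblasts (MEFs), a cell type other than the skin and other epithelia that these genes are known for. Members were the ATAC-Seq sites of the deposited table whose midpoint lies in 1 of 3 windows of mm10: the type I keratins with the keratin-associated proteins on chromosome 11 (99.2 to 100.3 Mb), the type II keratins on chromosome 15 (101.3 to 102.1 Mb) and the epidermal differentiation complex on chromosome 3 (92.2 to 93.8 Mb). The rule used position only. It found 434 of the 229903 sites, of which 119 lie in the type I cluster, 139 in the type II cluster and 176 in the epidermal differentiation complex. In ATAC-Seq a transposase cuts open chromatin and inserts sequencing adaptors, so the number of reads at a site measures its accessibility. The study compared 3 HAT1+/+ lines with 3 HAT1-/- lines, labelled HAT1 WT and HAT1 KO, all from the C57bl6 strain background and with no treatment in the labels. HAT1 is the acetyltransferase of newly made histones, and the HAT1-/- lines came from HAT1-/- embryos, so the gene was missing during development as well as in culture. MEFs are a mixed population taken from whole embryos after removal of internal organs.

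Keratins build the intermediate filaments of epithelial cells, each filament pairing a type I with a type II protein. Keratin-associated proteins embed the hair keratins in the hair shaft. The epidermal differentiation complex holds the genes of the cornified envelope, the crosslinked shell of dead surface keratinocytes, among them involucrin, the small proline-rich proteins, the late cornified envelope proteins and the fused S100 proteins such as filaggrin. Many of these genes arose by tandem duplication, so neighbours can have near-identical sequence. Genes were put in these groups by symbol, and all genes so grouped within the windows were counted, whatever their values. Krt88, Krt90 and genes with Gm symbols that lie among the Krtap genes, such as Gm11563, fell among the other protein-coding genes. Of the list of other cornified envelope genes, Ivl, Kprp, Crct1 and Smcp have a start in the chromosome 3 window. Lor, Prr9 and Lelp1 of that list have none there, so the window may leave out part of the complex. Whether its flanks hold such genes was not examined.

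Only the authors' mean over the lines of each genotype was used for each site, the log2 of mean normalized reads. The spread between lines is therefore unknown, no test between genotypes was made here, and every difference given here is a difference between 2 means with no replicate check. A log2 difference is HAT1-/- minus HAT1+/+, and -1 stands for 2-fold fewer reads in HAT1-/-. Over the whole table the median difference was -0.06, 55% of sites were below 0, the interquartile range was -0.37 to 0.25, and the authors' means summed to 7893424 normalized reads for HAT1+/+ and 7479071 for HAT1-/-. The 12 fibroblast markers checked all had a site within 1 kb of a start, with a median of 160 normalized reads at the strongest such site in HAT1+/+ (lowest 36, highest 626) and 168 in HAT1-/- (39.9 to 648). Of 12 keratinocyte markers 8 had such a site, with a median of 50.1 reads in HAT1+/+ (13.3 to 362) and 38.6 in HAT1-/- (5.74 to 343). Trp63, Krt5, Krt14 and Dsg3 had none listed, while Grhl1, Krt10 and Itga6 had the strongest of the 8, with 362, 139 and 106 reads in HAT1+/+. Such a site was found for 7 of 8 simple epithelial markers, 3 of 4 muscle, 4 of 4 endothelial and 3 of 3 blood markers, with medians in HAT1+/+ of 21.3, 11.2, 68.6 and 49.9 reads. In HAT1-/- those medians were 20.8, 7.62, 52.8 and 72.5 reads. A site at a start is not expression, and whether a change in the mix of cells took part in any difference was not tested.

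The sequences of 7 sites are printed from the plus strand of mm10, in capitals where they match TGANTCA, the core recognised by AP-1, a factor of epithelial and fibroblast enhancers. Of these, 6 are, for each cluster, the site with the lowest difference among those of 16 or more normalized reads in a genotype and the most accessible site, each with no exon in the printed part. The seventh is a site of the Sprr2a genes that lies in repeated sequence.
Type I, lowest difference, chr11:99310923-99311184, intergenic near Krt25: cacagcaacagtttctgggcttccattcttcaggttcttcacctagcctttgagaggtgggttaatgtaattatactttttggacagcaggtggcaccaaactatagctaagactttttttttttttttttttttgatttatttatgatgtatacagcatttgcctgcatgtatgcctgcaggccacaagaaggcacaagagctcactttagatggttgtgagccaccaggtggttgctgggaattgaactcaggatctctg
Type I, highest level, chr11:99472174-99472473, intergenic near Krt23: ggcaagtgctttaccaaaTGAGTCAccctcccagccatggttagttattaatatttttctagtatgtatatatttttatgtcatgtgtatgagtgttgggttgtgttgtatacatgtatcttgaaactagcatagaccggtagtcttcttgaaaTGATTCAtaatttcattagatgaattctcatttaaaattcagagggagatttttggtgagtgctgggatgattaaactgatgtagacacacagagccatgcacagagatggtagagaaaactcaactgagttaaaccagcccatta
Type II, lowest difference, chr15:101320679-101320978, intergenic at the left edge of the window: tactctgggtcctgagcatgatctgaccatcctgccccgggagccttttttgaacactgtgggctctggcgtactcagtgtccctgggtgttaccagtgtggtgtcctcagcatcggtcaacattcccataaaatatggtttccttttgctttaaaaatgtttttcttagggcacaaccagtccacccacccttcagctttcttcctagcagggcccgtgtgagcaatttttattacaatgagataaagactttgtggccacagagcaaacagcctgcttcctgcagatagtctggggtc
Type II, highest level, chr15:101984164-101984463, intergenic near Krt8: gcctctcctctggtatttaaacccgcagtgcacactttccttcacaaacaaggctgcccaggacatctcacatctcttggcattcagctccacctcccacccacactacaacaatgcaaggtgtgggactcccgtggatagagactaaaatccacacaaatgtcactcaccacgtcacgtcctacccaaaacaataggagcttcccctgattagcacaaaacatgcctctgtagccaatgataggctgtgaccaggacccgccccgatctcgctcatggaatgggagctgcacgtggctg
Epidermal differentiation complex, lowest difference, chr3:92825901-92826127, intron of Kprp: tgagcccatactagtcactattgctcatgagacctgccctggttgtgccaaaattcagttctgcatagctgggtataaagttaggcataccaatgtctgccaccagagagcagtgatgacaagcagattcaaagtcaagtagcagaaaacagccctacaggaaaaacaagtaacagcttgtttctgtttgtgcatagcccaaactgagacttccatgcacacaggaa
Epidermal differentiation complex, highest level, chr3:93597329-93597628, intergenic near S100a10: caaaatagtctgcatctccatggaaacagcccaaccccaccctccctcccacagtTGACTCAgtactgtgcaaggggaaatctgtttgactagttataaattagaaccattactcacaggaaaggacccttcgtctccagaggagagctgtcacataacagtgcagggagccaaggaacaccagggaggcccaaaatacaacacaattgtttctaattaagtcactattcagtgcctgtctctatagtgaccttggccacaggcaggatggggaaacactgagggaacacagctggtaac
Epidermal differentiation complex, repeated site, chr3:92211100-92211380, intergenic near Sprr2a1: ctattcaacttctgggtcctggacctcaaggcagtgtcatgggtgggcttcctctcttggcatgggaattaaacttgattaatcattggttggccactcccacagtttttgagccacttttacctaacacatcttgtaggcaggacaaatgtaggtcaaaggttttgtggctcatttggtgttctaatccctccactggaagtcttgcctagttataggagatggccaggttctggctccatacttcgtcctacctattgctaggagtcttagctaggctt
The Krt23 site holds 2 matches and the S100a10 site 1, and no match was found in the letters of the other 5.

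Most genes of the clusters had no listed accessible site at their start in either genotype. Of the 159 protein-coding genes in the windows, 51 (32.1%) had a site within 1 kb of a start, against 74.6% of the 21951 protein-coding genes of the genome. In the 2 Mb on each side the share was 86.0% around the type I cluster, 88.0% around the type II cluster and 73.9% around the epidermal differentiation complex. Inside the windows it was 36.2%, 40% and 23.3%. With at least 16 normalized reads in a genotype asked of the site, 25 of the 159 genes were left. The share was thus lower in each cluster window than in its flanks. Of the 96 genes with a start in at least 90% unique sequence 27.1% had a site, and of the other 63 genes 39.7%. That split counted sites of any level, among them a site of 0.655 reads in HAT1+/+ at Krtap9-1, and was not made at 16 or more reads. Uniqueness was taken around the outermost start of a gene only, while a site could lie by any of its starts.

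**Figure D1:**
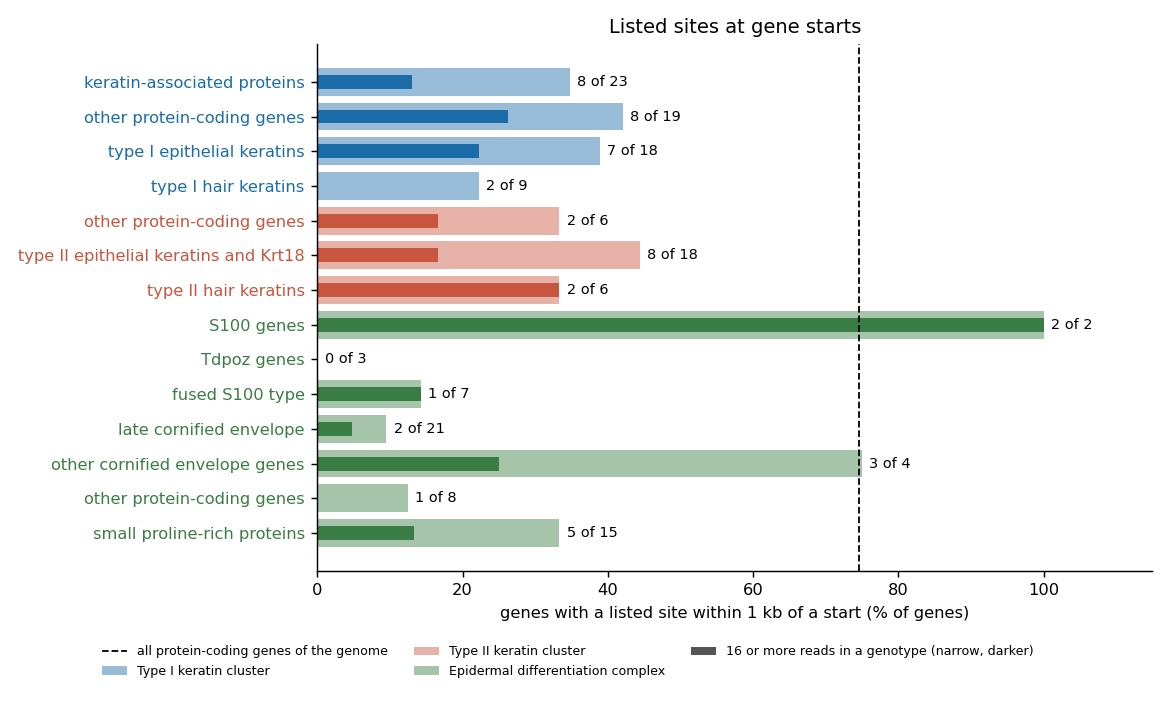
Share of protein-coding genes with a listed site within 1 kb of a start, by gene group and cluster, in percent of genes. Pale bars count any site, narrow dark bars those of 16 or more normalized reads in a genotype, and the dashed line is the 74.6% of all protein-coding genes. The 2 S100 genes reach 100%, and 2 of 21 late cornified envelope genes have a site.

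By group, in the type I window 7 of 18 epithelial keratins, 2 of 9 hair keratins and 8 of 23 keratin-associated protein genes had a site at a start. In the type II window it was 8 of 18 epithelial keratins, with Krt18 counted among them, and 2 of 6 hair keratins. In the epidermal differentiation complex 2 of 21 late cornified envelope genes, 5 of 15 small proline-rich protein genes and 1 of 7 fused S100 genes had such a site, while both S100 genes in the window, S100a10 and S100a11, had one. With 16 or more reads in a genotype asked of the site, 1, 2 and 1 genes of the first 3 groups were left. The strongest site for Sprr2a1 and Sprr2a2 was 1 shared site of 0.655 reads in HAT1+/+ and 0.742 in HAT1-/-, the table's lowest values described below. S100a10 and S100a11 encode members of the S100 family of small EF-hand proteins, and both are made in many cell types.

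Among the keratins of stratified epithelia the basal pair Krt5 and Krt14 had no listed site at a start, nor had Krt15 and Krt17. Krt10, made by suprabasal keratinocytes, had the most accessible site of the type I cluster, at chr11:99385876-99386707 within the gene, with means of 139 normalized reads in HAT1+/+ and 118 in HAT1-/-, a log2 difference of -0.24. Krt1, which pairs with Krt10, had sites of 19.4 and 20.1 reads (0.05) and of 7.31 and 6.06 reads (-0.27). The Krt10 site and the first Krt1 site lie by annotated starts inside their genes. The outermost starts, at chr11:99389364 and chr15:101850794, are not within 1 kb of these sites.

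Of the simple epithelial keratins, Krt7 and Krt18 had no site at a start. Krt8 had 3, with 38.1, 19 and 10.3 reads in HAT1+/+ and 30.3, 17.8 and 11.7 in HAT1-/-, which gave differences of -0.33, -0.10 and 0.19. Krt19 had 2, with 60.5 and 22.3 reads in HAT1+/+ against 70.0 and 22.8 in HAT1-/- (0.21 and 0.03), the second by a start inside the gene. The sites of both genes thus held differences of both signs or close to 0.

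Krt80, a type II keratin of differentiating epithelia, had the most accessible keratin starts of chromosome 15. Its site upstream of the start, chr15:101370374-101370827, had 164 reads in HAT1+/+ and 136 in HAT1-/- (-0.27). The intronic site, chr15:101368560-101369337, had 119 and 73.5 reads (-0.70) and was among the 5 lowest of the cluster at 16 or more reads in a genotype.

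In the epidermal differentiation complex filaggrin (Flg) had no site at a start. Involucrin (Ivl), an early component of the cornified envelope, had a site at its start with 15.9 reads in HAT1+/+ and 11.5 in HAT1-/- (-0.47). The start of Sprr1a, an envelope crosslinking substrate, at chr3:92485652-92486239, had 69.6 reads in HAT1+/+ and 37.0 in HAT1-/- (-0.91). S100a11 had 282 and 260 reads (-0.12). S100a10 had 3 sites with 194, 179 and 19.4 reads in HAT1+/+ and 215, 220 and 27.9 in HAT1-/-, all with a higher mean in HAT1-/- (0.15, 0.30 and 0.52). Of the starts of the complex given so far only those of S100a10 thus had positive differences.

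The member sites were weaker by their median level than those in the flanks, and their density was 0.56 of that of the flanks in the type I cluster, 0.996 in the type II cluster and 1.23 in the complex. The type I cluster had 108 sites per Mb against 192.5 in its flanks, the type II cluster 174 against 174.5, and the epidermal differentiation complex 110.0 against 89.2. The flank left of the window of the complex was sparse, with 61.0 sites per Mb against 117.5 on the right. The median authors' mean of a site in HAT1+/+ was 3.66 on the log2 scale in the type I cluster and 4.29 in its flanks. It was 3.75 against 4.22 for the type II cluster and 3.40 against 4.28 for the complex. Sites reaching 16 reads in a genotype made up 42%, 46% and 40.3% of the 3 clusters, against 60.3%, 58.9% and 60.5% of their flanks and 50.6% of the table. Without sites at the table's lowest value, described below, the median of the complex was 3.92, against 4.285 in its flanks and 3.87 over the table. Its share reaching 16 reads was then 50.4%, against 60.7% of its flanks and 50.9% of the table.

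The median difference was -0.16 in the type I cluster (interquartile range -0.38 to 0.23), -0.07 in the type II cluster (-0.41 to 0.21) and -0.085 in the epidermal differentiation complex (-0.40 to 0.18). The flanks had medians of -0.075, -0.06 and -0.10. The cluster medians thus lay within 0.1 of their flanks. In the complex 35 sites carry a fixed difference of 0.18, described below with the Sprr2a genes, and without them its median was -0.17 and its difference from the flanks -0.07 in place of 0.015. With the reads of both genotypes scaled to equal totals the medians were -0.08, 0.01 and -0.0072, so that the sign of the type II median is set by the scaling and that of the complex, with all its sites, is near 0. The sum of normalized reads in HAT1-/- was 89.5% of that in HAT1+/+ in the type I cluster, 93.5% in the type II cluster and 92.6% in the complex, against 94.8% over the table.

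**Figure D2:**
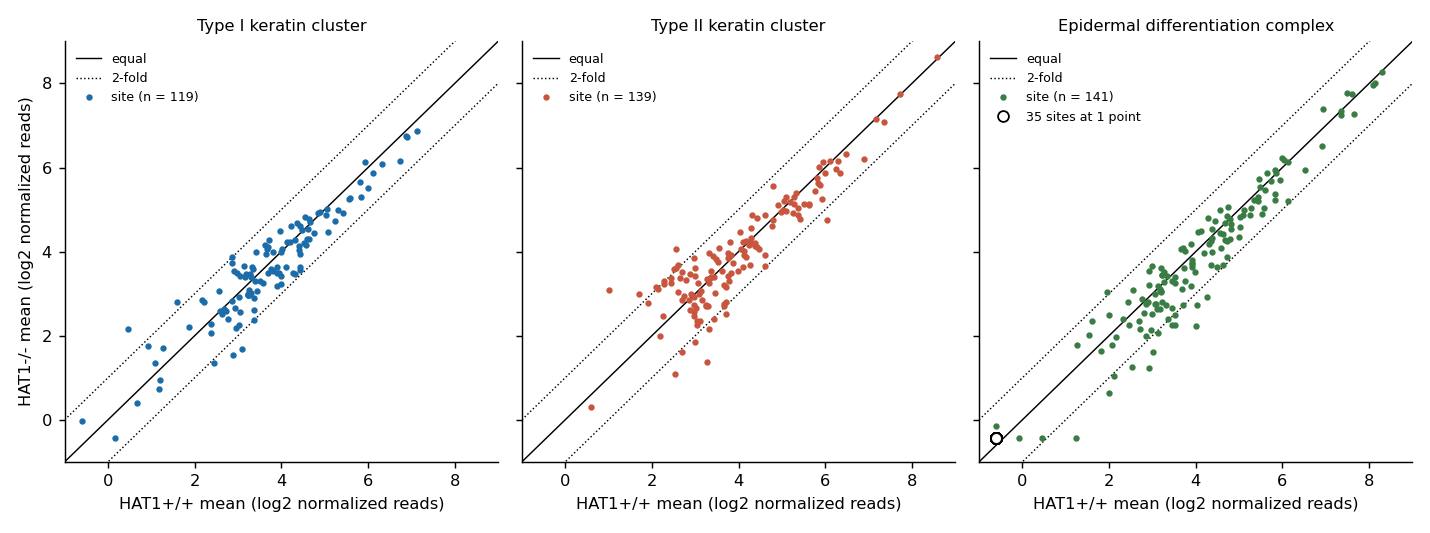
Authors' mean in HAT1+/+ (x axis) against HAT1-/- (y axis) for every member site, both in log2 normalized reads, by cluster. Solid lines mark equality and dotted lines a 2-fold difference, and the open circle marks 35 sites at -0.61 and -0.43. Sites above a level of 7 in HAT1+/+ lie within 2-fold, and the points beyond the dotted lines are mostly sites with few reads.

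Past 2-fold lower were 3 of 119 sites in the type I cluster (2.52%), 8 of 139 in the type II cluster (5.76%) and 13 of 176 in the complex (7.39%), beside 5.11% of all sites. Past 2-fold higher were 3 (2.52%), 8 (5.76%) and 1 (0.568%) sites, beside 2.82% of all sites. Most of these rested on few reads. In the complex 7 of the 13 lower sites lay in sequence under 90% unique, and its 114 sites in at least 90% unique sequence had 6 (5.26%), near the 5.11% of all sites. Among sites of 16 or more reads in a genotype, 0 of 50, 1 of 64 and 3 of 71 were past 2-fold lower, beside 4.17% of all such sites, and 0, 1 and 0 were past 2-fold higher, beside 0.879%. The 3 lower sites of the complex reached 16 reads in HAT1+/+ only, and the 1 higher site in HAT1-/- only. At this level the shares past 2-fold lower in the keratin clusters were thus below the background and that of the complex, 4.23%, was near it. In the flanks they were 1 of 464 (0.216%) for type I, 3 of 411 (0.730%) for type II and 6 of 216 (2.78%) for the complex. A share below the background was thus not particular to the keratin clusters. The share past 2-fold higher in the type II cluster was above the background over all its sites, and at 16 or more reads it rested on 1 site. The sites at the window borders did not share a direction, with differences of 0.19, 0.39 and 0.39 just outside the left borders, -0.27, 1.07 and -1.07 just inside them, -0.41, 0.15 and -0.21 just inside the right borders and 0.07, -0.42 and -0.24 just outside.

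In the type I cluster the lowest differences among sites of 16 or more reads lay across hair and epithelial genes. The site near Krt25, a keratin of the inner root sheath, whose sequence is printed above, had 21.7 reads in HAT1+/+ and 11.9 in HAT1-/- (-0.87). A site near Krtap1-4 had 19.8 and 11 reads (-0.85). Both the site in the exon of Krtap16-1 and that near the hair keratin Krt33a had -0.78, the first from 21.4 to 12.5 reads and the second from 19.3 to 11.2. The fifth, at the start of Krtap1-5, had 33.6 and 22.2 reads (-0.60). The highest differences were 0.55 in an intron of Krt28 (13.2 and 19.3 reads), 0.52 near Gm11563 (12.4 and 17.8 reads) and 0.51 in an exon of Krt13 (15.7 and 22.3 reads). Apart from the site within Krt10, the most accessible sites were the start of Smarce1, a chromatin remodelling gene at the border, with 119 and 105 reads (-0.18), and the printed site near Krt23, with 117 and 108 reads (-0.12).

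Along the type I cluster 8 of 11 bins of 100 kb had a median below 0. The lowest bin, 99.5 to 99.6 Mb with Krt40 and the Krtap1 genes, had a median of -0.47 over 10 sites and kept 71.6% of the HAT1+/+ reads. The 3 bins from 99.7 to 100 Mb, which hold the Krtap4 and Krtap9 genes, had medians of 0.50, 0.065 and 0.17 over 3, 8 and 5 sites. Their median levels were 7.89, 7.46 and 5.21 reads in HAT1+/+ and 11.2, 8.40 and 7.16 in HAT1-/-, so that these medians rest on small numbers of reads, and in the first and second of these bins the median share of unique 31-base words per site was 54.1% and 59.2%.

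In the type II cluster the lowest site of 16 or more reads, at chr15:101320554-101321103 and printed above in part, had 66.3 reads in HAT1+/+ and 26.9 in HAT1-/- (-1.30). It lies between 6030408B16Rik and Krt80, 27596 bp from the nearest protein-coding start. The others were in an intron of the hair keratin Krt87 (24.4 and 12.6 reads, -0.96), in the Krt80 intron, near Krt8 (24.6 and 15.2 reads, -0.69) and near Krt79 (60.5 and 37.8 reads, -0.68). The highest were near Krt73, a root sheath keratin (5.86 and 16.6 reads, 1.5), near Krt75 (27.9 and 47.5 reads, 0.77) and near Krt80 (19.97 and 29.4 reads, 0.56). Sites near Krt80 were thus found at both ends of the range. The most accessible site was the start of Eif4b, a translation initiation factor at the right border, with 380 and 399 reads (0.07). The printed intergenic site near Krt8 followed with 212 and 215 reads (0.02).

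The type II bins ran from -0.225 (101.3 to 101.4 Mb, Krt80 and Krt7) to 0.16 (101.7 to 101.8 Mb, Krt5 to Krt72), with 5 of 8 below 0. Around Krt80 and Krt7 22 of 30 sites were below 0 and HAT1-/- kept 83.6% of the HAT1+/+ reads. From Krt83 to Krt75, at 101.5 to 101.6 Mb, 7 of 21 sites were below 0 and the reads came to 116% of HAT1+/+. The mean of 25 consecutive sites was lowest at -0.36 and highest at 0.30, both within this cluster of 0.8 Mb.

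**Figure D3:**
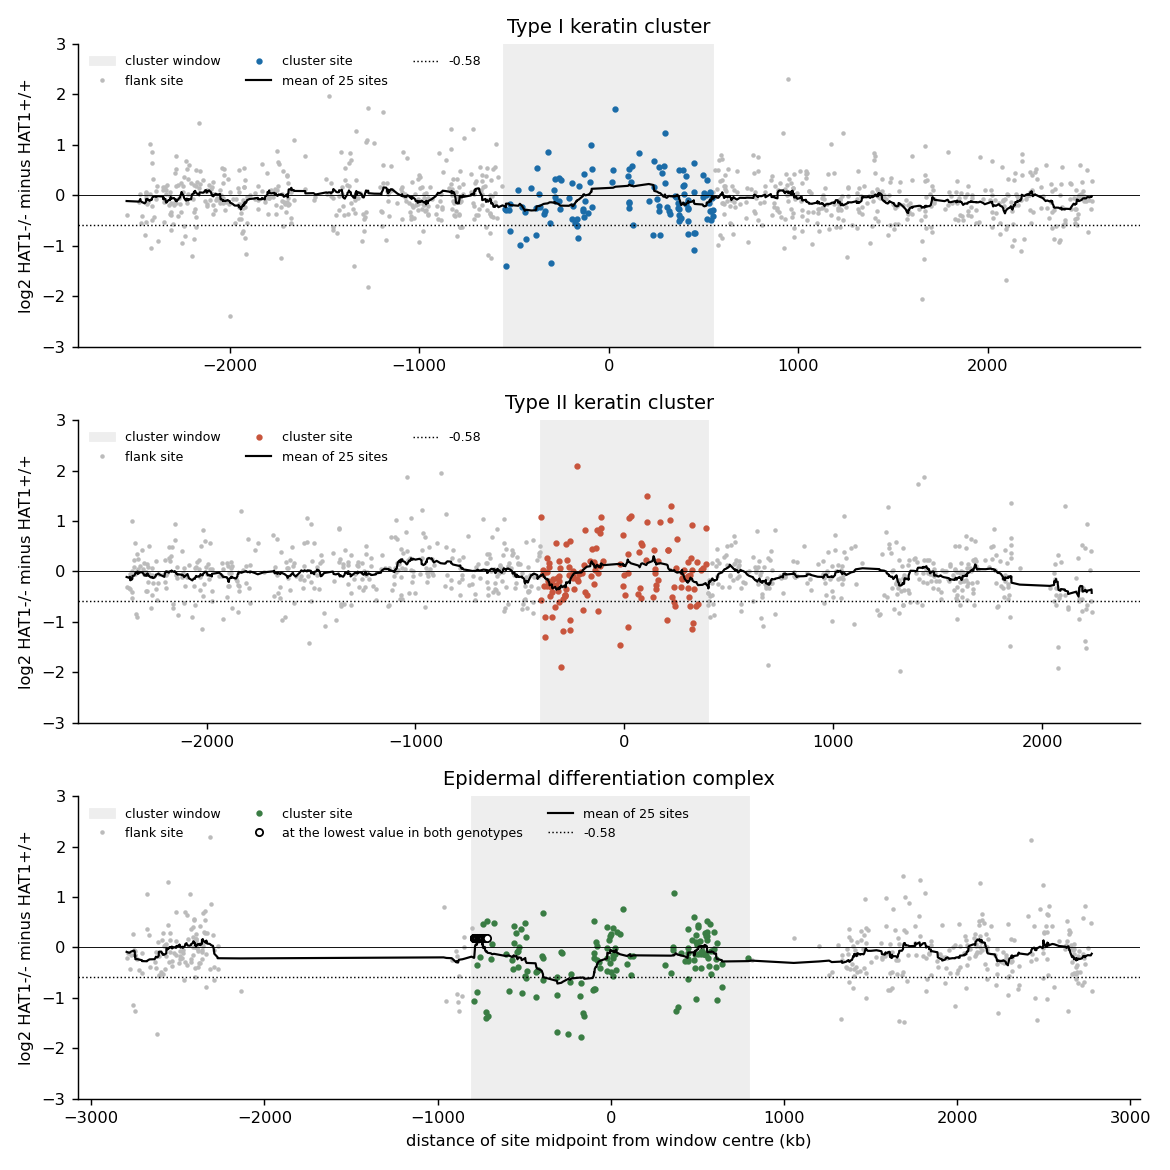
Log2 difference of every site (y axis) against the distance of its midpoint from the window centre in kb (x axis), for each cluster with the 2 Mb on each side. Coloured points are member sites, grey points flank sites, open circles sites at the table's lowest value in both genotypes, and the line is the mean of 25 consecutive sites, drawn across gaps without sites. The line falls below -0.58 (dotted) only left of the centre of the epidermal differentiation complex, where it reaches -0.71.

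The lowest stretch of the epidermal differentiation complex lay over the Lce1 genes of the late cornified envelope family and Kprp. With the mean of 25 consecutive sites and the limit of -0.58 that the study used for HAT1-dependent accessibility domains (HADs), 15 sites of the complex lay below the limit, which is 8.52% of its sites beside 2.26% of all sites, and 0 sites of either keratin cluster or of the flanks. The 15 sites are consecutive, from chr3:92609801 to 92895445, a stretch of 286 kb with 17 protein-coding genes, 14 of them late cornified envelope genes. Their median difference was -0.85 (interquartile range -1.33 to -0.56), 14 of 15 were below 0, 5 were past 2-fold lower, and their reads came to 58.8% of HAT1+/+. Since the limit chose these 15 sites, these values describe them and test nothing.

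The stretch was sparse and weakly open, with a median of 12.9 reads in HAT1+/+ and 7.52 in HAT1-/-. Its 6 sites of 16 or more reads had a median of -1.12 and its 11 sites in at least 90% unique sequence -0.95. The 16 reads could be reached in either genotype, and those of these sites named below reached them in HAT1+/+ only. Such a filter keeps sites that are high in HAT1+/+, so the -1.12 is no support for the stretch. GC content in the 200 kb around the sites had a median of 39.1% against 41.2% for the rest of the complex, with the sites at the lowest value left out. Without the stretch and those sites the complex had a median of -0.135 over 126 sites and kept 94.0% of its reads. With a mean over 51 sites the lowest value was -0.45, short of the limit, and over 15 sites it was -0.94. Leaving out the sites at the table's lowest value gave the same stretch and the same lowest mean.

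The lowest sites of the complex with 16 or more reads were 4 sites of this stretch and the start of Sprr1a. The site in the intron of Kprp, a keratinocyte proline-rich protein, had 16 reads in HAT1+/+ and 4.66 in HAT1-/- (-1.78), and 2 intergenic sites between Kprp and Lce1l had 19.3 and 7.52 reads (-1.36) and 16.3 and 6.68 reads (-1.29). A site near Lce1d had 24.8 and 12.8 reads (-0.95). The highest were at the start of S100a10 (0.52), near S100a10 (122 and 168 reads, 0.46) and near S100a11 (23.6 and 32 reads, 0.44). The most accessible were the printed site near S100a10 with 313 and 307 reads (-0.03), the start of S100a11 and an intergenic site near S100a11 with 272 and 249 reads (-0.13). Nearest to a late cornified envelope gene were 34 sites, 26 below 0, with a median of -0.225, and nearest to an S100 gene 25 sites, 13 below 0, with a median of -0.03. The 34 sites take in sites of the stretch. Right of the stretch, the bin from 92.9 to 93 Mb, with Lce3 genes, had a median of -0.155 over 18 sites.

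**Figure D4:**
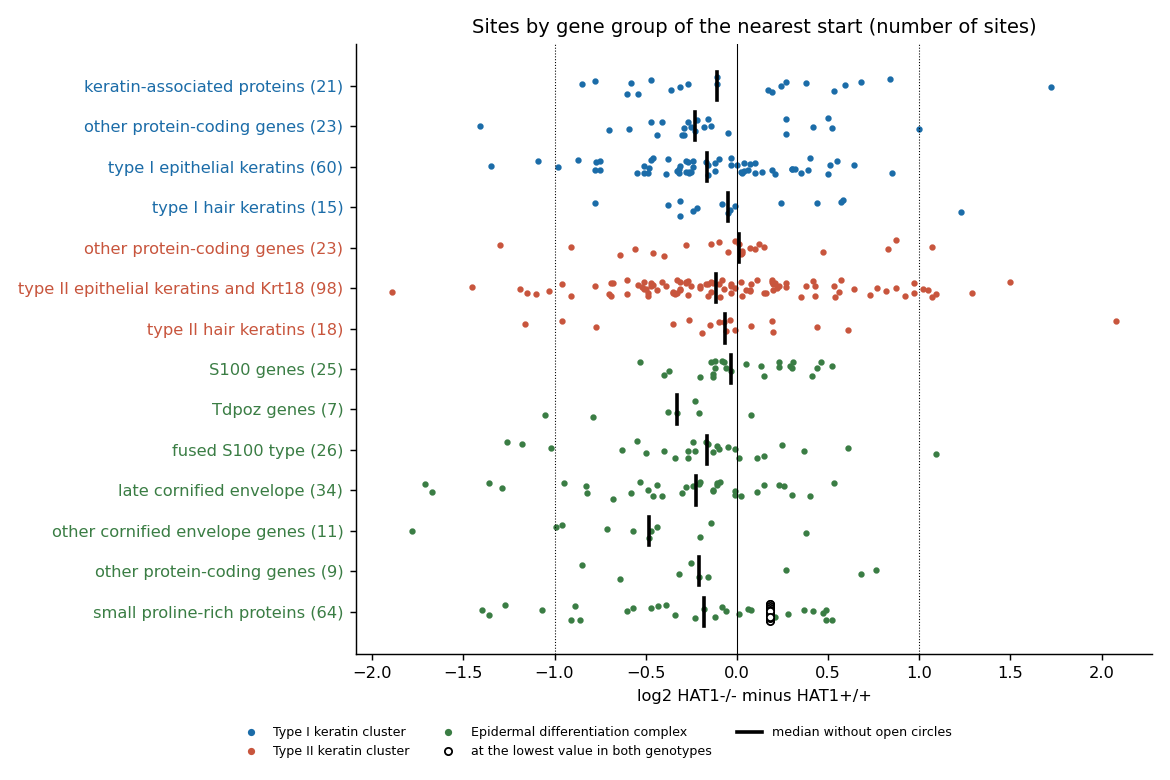
Log2 difference of every member site (x axis) by the gene group of the nearest protein-coding start (y axis, number of sites in parentheses), coloured by cluster. Bars are medians without the open circles, which are sites at the table's lowest value in both genotypes, and dotted lines mark 2-fold. The S100 genes lie around 0 (median -0.03, none past 2-fold), and the other cornified envelope genes (Ivl, Kprp and Crct1) have the lowest median, -0.48 over 11 sites. Those 11 take in sites of Kprp, which lies in the stretch chosen for its low mean.

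By nearest start, the groups of the type I cluster had medians of -0.165 (60 sites, epithelial keratins), -0.05 (15 sites, hair keratins) and -0.11 (21 sites, keratin-associated proteins). The type II epithelial keratins had -0.115 over 98 sites and the hair keratins -0.065 over 18. In each of these groups sites lay on both sides of 0, with 37, 10, 11, 57 and 12 sites below it. With equal total reads, which adds 0.08 to every difference, the medians of both hair keratin groups and of the S100 genes lay above 0. Among the 26 sites nearest to a fused S100 gene, 19 were below 0 (median -0.165). Of the 64 sites nearest to a small proline-rich protein gene 29 were above the table's lowest value, 18 of these below 0 (median -0.18), and of the 7 nearest to a Tdpoz gene 6 were below 0 (median -0.33). The cornified envelope genes outside the named families, by nearest start Ivl, Kprp and Crct1, had 10 of 11 sites below 0 (median -0.48). HAT1-/- kept 70.6% of the reads of these sites. They, and the sites nearest to a late cornified envelope gene, take in sites of the stretch chosen above by its low mean. The medians of both groups are thus not separate from that choice.

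The Sprr2a genes at the left end of the complex stood apart. Of the 176 sites of the complex, 35 were listed at the lowest value of the table in both genotypes, -0.61 for HAT1+/+ and -0.43 for HAT1-/- on the log2 scale, which is 0.655 and 0.742 normalized reads. All 35 lie between chr3:92211100 and 92282478, around Sprr2a1, Sprr2a2 and Sprr2a3, which encode envelope precursors of near-identical sequence. The lowest values differ by 0.18, so each of these sites carries a log2 difference of 0.18 that holds no comparison of reads. The keratin clusters had 0 such sites, and the whole series of sites held 933 (0.406%).

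The sequence of these sites occurs more than once in the genome. Of 31-base words counted over mm10, 33 of the 35 sites held none that occurs once, the highest share was 7.58%, and the median number of occurrences of a word was 3. The printed sequence of 281 bp occurs 3 times on chromosome 3, starting at 92211100, 92245810 and 92280602. The other 141 sites of the complex had a median of 100% unique words. Without the 35 sites the median difference of the complex was -0.17 over 141 sites in place of -0.085 over 176, sites below 0 made up 69.5% in place of 55.7% (60.7% in the flanks and 55.2% of the table, both without such sites), and the difference from the flanks turned from 0.015 to -0.07. Its density fell from 110.0 to 88.1 sites per Mb, close to the 89.0 of its flanks.

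**Figure D5:**
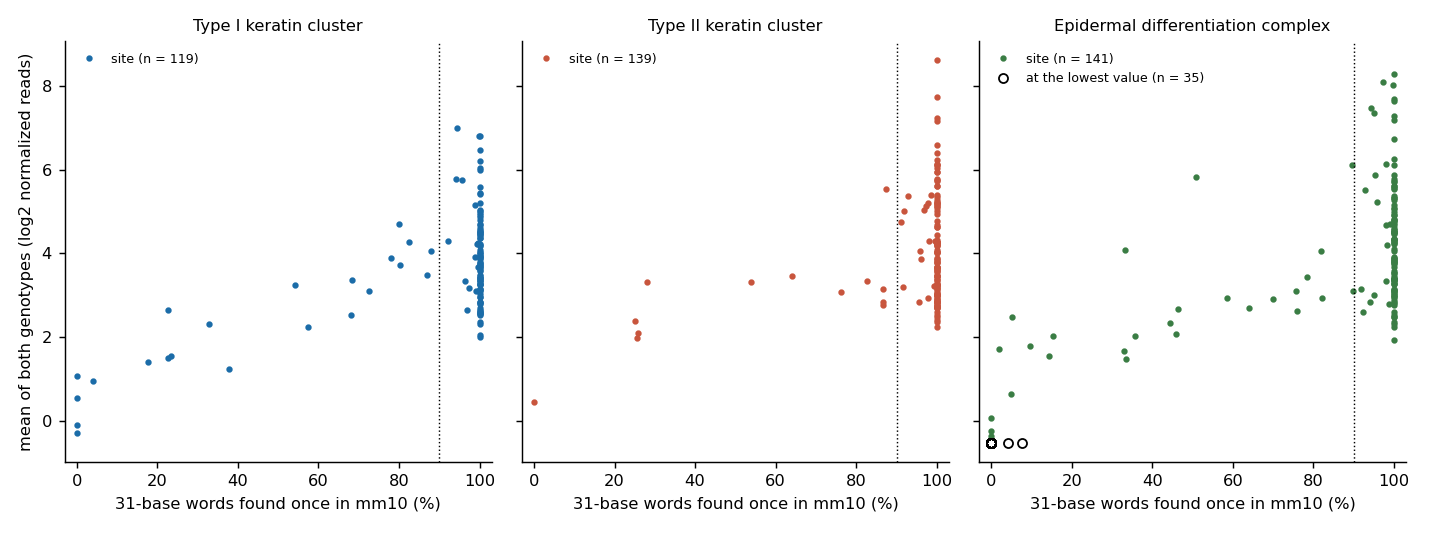
Mean level of both genotypes in log2 normalized reads (y axis) against the share of 31-base words of a site that occur once in mm10, in percent (x axis), for each cluster, with a dotted line at 90%. In the 3 clusters the sites with no unique word lie at the lower end of the level axis, and the 35 open circles of the epidermal differentiation complex are those at the table's lowest value.

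Repeated sequence also went with low levels in the keratin clusters. In the type I cluster the 22 sites under 90% unique words had a median of 4.93 reads in HAT1+/+ and a median difference of 0.23, and the other 97 sites had 14.8 reads and -0.18. In the type II cluster the 13 repeated sites had 6.63 reads and 0.15, and the 126 others 14.2 reads and -0.085. The sum of reads in HAT1-/- over the repeated sites was 104% of HAT1+/+ in the type I cluster and 82.3% in the type II cluster, so that sum and median differed in direction in the latter. In the complex the 27 repeated sites above the table's lowest value had a median difference of -0.33 and the 114 unique sites -0.13. Repeated sites thus shared low levels but no direction. The part of read mapping in these values was not tested.

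Member sites were mostly intergenic. Of the 434 sites 69.1% lay outside protein-coding genes, 15.4% in introns and 15.4% in exons, against 45.5%, 45.02% and 9.44% of all sites. Within 1 kb of a start lay 35.3% of the type I sites, 12.9% of the type II sites and 10.8% of the sites of the complex. The 79 such sites of the clusters had a median of 13 reads in HAT1+/+, against 35.8 reads for the 32204 sites at starts over the genome. Their median difference was -0.18, against -0.08 for those.

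In 300 bp around the midpoint on both strands, TGANTCA was found in 28.6% of type I sites, 23.7% of type II sites and 33.5% of sites of the complex, against 27.2% of all sites. GGAATG, the core bound by TEAD factors, was found in 22.7%, 22.3% and 21.0%, against 21.1%, and GGGCGG, the GC box, in 13.4%, 10.8% and 2.84%, against 11.4%. Matches of different motifs that overlap were each counted, and a match is not a bound site. In the keratin clusters the sites with TGANTCA were the more accessible. In the type I cluster they had a median of 22.2 reads in HAT1+/+ and 19.5 in HAT1-/-, against 10.3 and 10.8 for the others, and in the type II cluster 27.9 and 29.4, against 10.9 and 11.1. Over the table the medians were 16.8 reads with and 13.7 without the motif in HAT1+/+. Past 2-fold lower were 0 of 34 type I and 0 of 33 type II sites with the motif, and 3 of 85 and 8 of 106 without it. In the complex the shares ran the other way, with 6 of 59 (10.2%) with the motif and 7 of 117 (5.98%) without. The 59 and 117 sites, and the share of 33.5%, take in the 35 repeated sites at the table's lowest value. Those carry a fixed difference of 0.18 and cannot be past 2-fold. Over all sites the shares past 2-fold lower were 5.32% with the motif and 5.02% without it. Over the table such shares also differed by level, with 9.55% of sites of 4 to 8 reads and 0.879% of those of 64 or more. Sites with and without the motif were not compared at matched levels.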

How the data were processed

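ATAC-Seq was performed on 3 HAT1+/+ and 3 HAT1-/- primary MEF lines, grouped by the genotype in the labels. Per the labels and the study's methods, reads were aligned to mm10 with Bowtie2 in the ENCODE pipeline, peaks were called with MACS2 and sites were counted with DiffBind 2.14.0. The deposited table gives for each site the authors' mean of each genotype as log2 of normalized reads. The consensus rule and the normalization are not given in the sources used here, and depth per line is unknown, so the number of reads at a site limits the precision. The authors' fold change, p-value and FDR of each site were not used.

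Levels were raised to the power of 2 to give normalized reads. Genes and starts came from GENCODE vM21, and sequence from the RefSeq copy of GRCm38, the assembly of mm10, which had every chromosome named in the table at a length that takes in its sites. A site was assigned to the nearest protein-coding start by its midpoint, and was at a start when within 1 kb of it. Starts were those of all annotated transcripts of a gene, so a start can lie inside its gene. Flanks were 2 Mb on each side. The running mean took 25 consecutive sites. A word of 31 bases was unique if it occurred once in the genome on either strand. Named in the text are, for each cluster, the 5 lowest and 3 highest differences among sites of 16 or more reads in a genotype, the 3 highest levels, and the starts of 15 genes chosen by role. A few sites of the Lce and Sprr2a stretches were singled out after their values were seen. The members and lists were chosen with earlier results of these data known. Summaries were tested on simulated levels at the real positions. Python 3.11.15, numpy, pandas, scipy and matplotlib were used.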

Additional observations from a re-analysis of the deposited data

How the results depend on the processing

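No paired analysis was possible because the columns used are genotype means and the labels share no replicate numbers, and for the same reason no line could be left out. Of 84 alternatives to the 18 main values, 70 kept the value within its tolerance, 12 moved it and 2 reversed it, and the 86 rescaled values of named sites all stayed within theirs. Past 1.5-fold lower in place of 2-fold were 16 type I, 21 type II and 29 complex sites. Without the lowest 25% of all sites by level, 0 of 82, 2 of 99 and 3 of 95 sites were past 2-fold lower. The shares of all sites at 1.5-fold and under this filter were not computed, so these counts have no background beside them. With equal total reads HAT1-/- had 98.7% of the HAT1+/+ reads in the type II cluster and 97.7% in the complex. The mean difference of the complex was -0.16 in place of the median of -0.085, and its difference from the flanks, by means, turned to -0.067. Leaving out the sites at the lowest value, an alternative chosen after the data were seen, gave -0.17 and again -0.07. The density of the complex was 2.32 times that of the 1 Mb on each side, against 1.23 times for 2 Mb. With 51 sites its lowest running mean was -0.45. The cause of these shifts was not tested, except that a wider threshold counts more sites and a filter fewer. Most member sites hold under 16 normalized reads, and differences there are the least certain.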

Other observations

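Sites at the lowest value of the table in both genotypes were concentrated elsewhere too. Of the 933 sites, 106 lay between 69 and 70 Mb of chromosome 14, 72 between 6 and 7 Mb of chromosome 17 and 35 in the Sprr2a stretch between 92 and 93 Mb of chromosome 3. Each of them carries the log2 difference of 0.18. The share of unique words was not computed at the sites of chromosomes 14 and 17.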
